A study of Arabidopsis thaliana with 29 samples.

Results

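Leaves of Arabidopsis thaliana (Columbia) in which GLUTAMINE DUMPER1 (GDU1) was induced for 25 h were compared with leaves of the parental line, gene by gene. The comparison holds 17652 genes, those that the authors' test accepted at 25 h, out of 32650 entries of the deposited table. Of the other entries, 14931 were not tested and 67 were too deep to be quantified. Those 67 include RBCS1A, RCA and CAB1, which every green leaf uses and which are listed at 0.

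The induced line is Dex-GDU1 (183B7), which carries GDU1 under the dexamethasone-dependent 6Op-LHGRn system, and the control is its parental line 4c-S7. Both received a spray of 100 µM dexamethasone with 300 ppm silwet L-77 at 5 h after dawn and stood under a dome for 7 h, so the controls carry the chemical treatment too. The column headed as without dexamethasone is the sprayed 4c-S7 line. Leaf RNA of 4 to 6 plants per library was sequenced from 3 libraries of Dex-GDU1 and 4 of 4c-S7 at 25 h, from soil-grown plants of 23 days (4 weeks in the series text) in 16 h of light and 8 h of dark at 22 °C. The same 2 lines sampled 7 h after spraying (3 and 4 libraries), and gdu1-1D, an unsprayed constitutive GDU1 over-expressor (3 libraries), against Col wild type (2 libraries), were used for comparison. Dex-GDU1 is 1 line, and no unsprayed group of it was among the 12 groups of 29 libraries. Induction and any standing difference between the lines therefore cannot be told apart at 25 h.

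GDU1 is a small plant membrane protein that works with the ubiquitin ligase LOG2, and its over-expression is known to raise amino acid export from plant cells and to change growth. Several of the largest groups below belong to abscisic acid (ABA) signalling. ABA binds receptors of the PYR/PYL family, the bound receptors block clade A protein phosphatases 2C (PP2Cs), and the freed SnRK2 kinases then activate bZIP transcription factors that bind the ABRE promoter element.

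Values are FPKM, a level scaled by transcript length and by the number of mapped fragments, of which the authors' deposited table gives 1 per gene and group. There is thus no spread between libraries to print, and the number of reads is not known. A gene is called where the authors' Cuffdiff q was below 0.05, and the log2 fold change is that of Dex-GDU1 over 4c-S7 in FPKM. The authors' deposited table stops at a smallest p of 5e-05, which 4636 of the called genes share. If p is read as that of a normal test, the standard error of their log2 fold change is at most its size divided by 4.06.

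At 25 h, 4329 genes (24.5% of those tested) were called higher in Dex-GDU1 and 3814 (21.6%) lower. These are the shares to set beside each count of list members called at 25 h below. Most of these differences were small, with a median log2 fold change of 0.46 among the genes called higher and of -0.36 among those called lower. At least 2-fold higher were 804 genes (4.55%), and at least 2-fold lower were 153 (0.867%). At least 8-fold higher were 60 genes and at least 8-fold lower were 7. The median over all tested genes was -0.00068. Among the genes named below, LEA7, P5CS1, PYL7, ABF3, AFP1, AFP2, GolS1, BSMT1, SARD1, MES7, PAD3, VSP2, ARR4, ARR16, CRF2, GASA9, UMAMIT33, WRKY33, WRKY40, WRKY53, PAP1, GSTF2, BZIP60, HSFC1, CHLI2, DIN10, GDU3 and LUL1 share a stretch with at least 1 other entry, and their values are the less certain for it. The share of called genes went up with level, from 33.7% in the lowest of 5 equal groups of genes by mean FPKM to 63.3% in the highest, while the median size of a called change fell from 0.78 to 0.34 on the log2 scale.

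**Figure D1:**
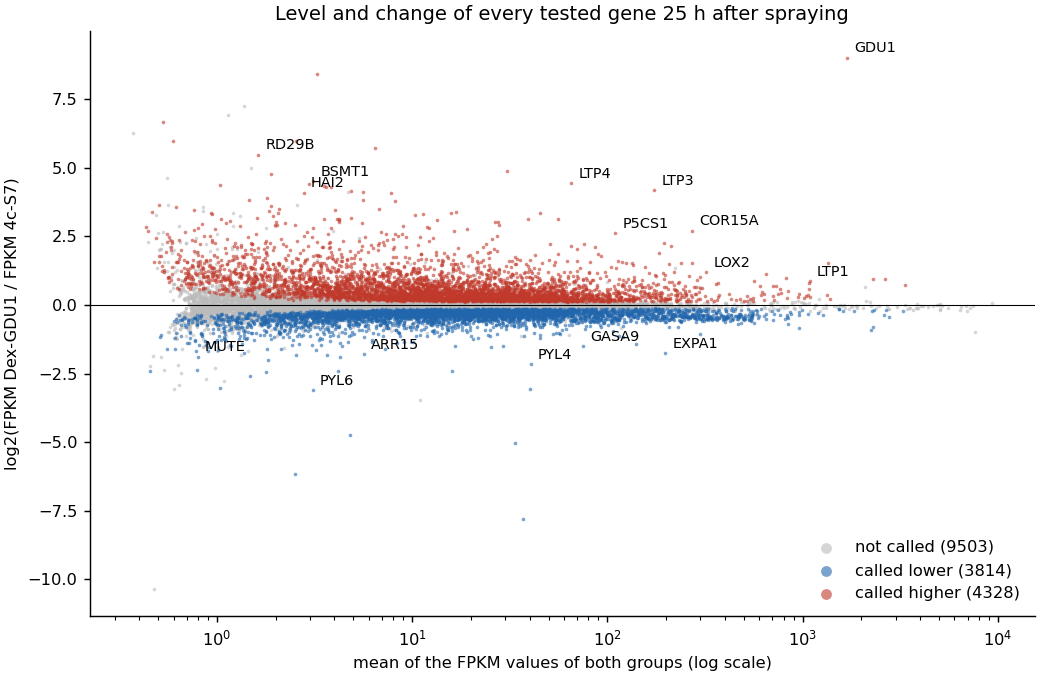
Mean FPKM of both groups (horizontal, log scale) against the log2 fold change of Dex-GDU1 over 4c-S7 at 25 h (vertical) for each tested gene with a finite fold change, coloured by call. GDU1 is the highest point at 9.01, AT4G08050 follows at 8.41, and most called genes lie close to 0.

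The induced gene itself had the largest finite log2 fold change among called genes, 9.01. AT5G38910, a cupin gene that was also called higher, is listed at 0 in 4c-S7 and has no finite ratio. GDU1 (AT4G31730, chromosome 4, 15361091 to 15361850 on TAIR10) stood at 6.52 FPKM in 4c-S7 and 3362 FPKM in Dex-GDU1. LOG2, the ubiquitin ligase partner, was higher at 27.8 against 19.1 FPKM, and its relative LUL1 at 9.27 against 6.93 FPKM. GDU3 was also higher, at 8.596 against 5.10 FPKM. GDU4, GDU5 and GDU7 were not called, with log2 fold changes of 0.52, 0.17 and -1.14, and GDU4 lies on a stretch of reads that 47 entries share. GDU2 and GDU6 were not tested, being below 1 FPKM in both groups. Of the 10 tested members of the family and the LOG2 group, 4 were called higher and 0 lower.

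The ABA pathway split by role, with receptors lower and their phosphatases higher. Among the 9 tested PYR/PYL receptors 7 were lower and 1 higher, with a median log2 fold change of -0.61. PYL6 (AT2G40330, chromosome 2, 16844864 to 16845934) fell most, from 5.56 FPKM in 4c-S7 to 0.648 FPKM in Dex-GDU1, a log2 fold change of -3.10. PYL4 (AT2G38310, chromosome 2, 16050063 to 16051168) stood at 66.3 FPKM in 4c-S7 and 14.8 FPKM in Dex-GDU1, and PYL5 at 13.0 and 5.08 FPKM. PYR1, the most expressed receptor of the control, stood at 82.6 and 49.5 FPKM. The remaining receptors called lower, PYL1, PYL2 and PYL8, had log2 fold changes of -0.59, -0.61 and -0.25. PYL7 was the 1 receptor called higher, at 37.0 against 23.8 FPKM, and PYL9 was not called (10.6 against 9.91 FPKM). Over the family, receptor levels summed to 278 FPKM in 4c-S7 and 177 FPKM in Dex-GDU1, a sum that has no test.

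Of 7 tested clade A PP2Cs, the negative regulators of the pathway, 6 were at least 2-fold higher and 0 lower. The highly ABA-induced phosphatases rose most in ratio, HAI2 (AT1G07430) from 0.307 to 5.25 FPKM and HAI1 (AT5G59220) from 0.968 to 8.72 FPKM. PP2CA was the most expressed, at 27.1 FPKM in 4c-S7 and 61.3 FPKM in Dex-GDU1. ABI1 stood at 21.0 and 47.2 FPKM, HAB1 at 11.1 and 25.3 FPKM, and ABI2 at 4.75 and 11.5 FPKM. HAB2, whose stretch of reads is shared by 38 entries, was not called (log2 fold change 0.43). The PP2C levels summed to 81.9 FPKM in 4c-S7 and 182 FPKM in Dex-GDU1.

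Downstream, the SnRK2 kinases changed little. Their median log2 fold change was 0.13 over 8 tested members, 4 of them higher and 0 lower, and OST1, the kinase of stomatal closure (in a joined entry), was not called (21.3 against 19.6 FPKM). Of 11 tested ABRE-binding bZIP factors and AFP proteins, which bind ABI5,, 7 were higher and 2 lower. ABF3, a bZIP activator of drought genes, stood at 39.5 against 16.4 FPKM, ABF2 at 14.2 against 8.07 FPKM and GBF3 at 5.78 against 1.71 FPKM. The AFPs, which restrain ABA output, went in both directions, AFP1 at 6.93 against 0.348 FPKM and AFP3 at 16.3 against 5.18 FPKM being higher and AFP2 at 2.67 against 4.66 FPKM lower.

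**Figure D2:**
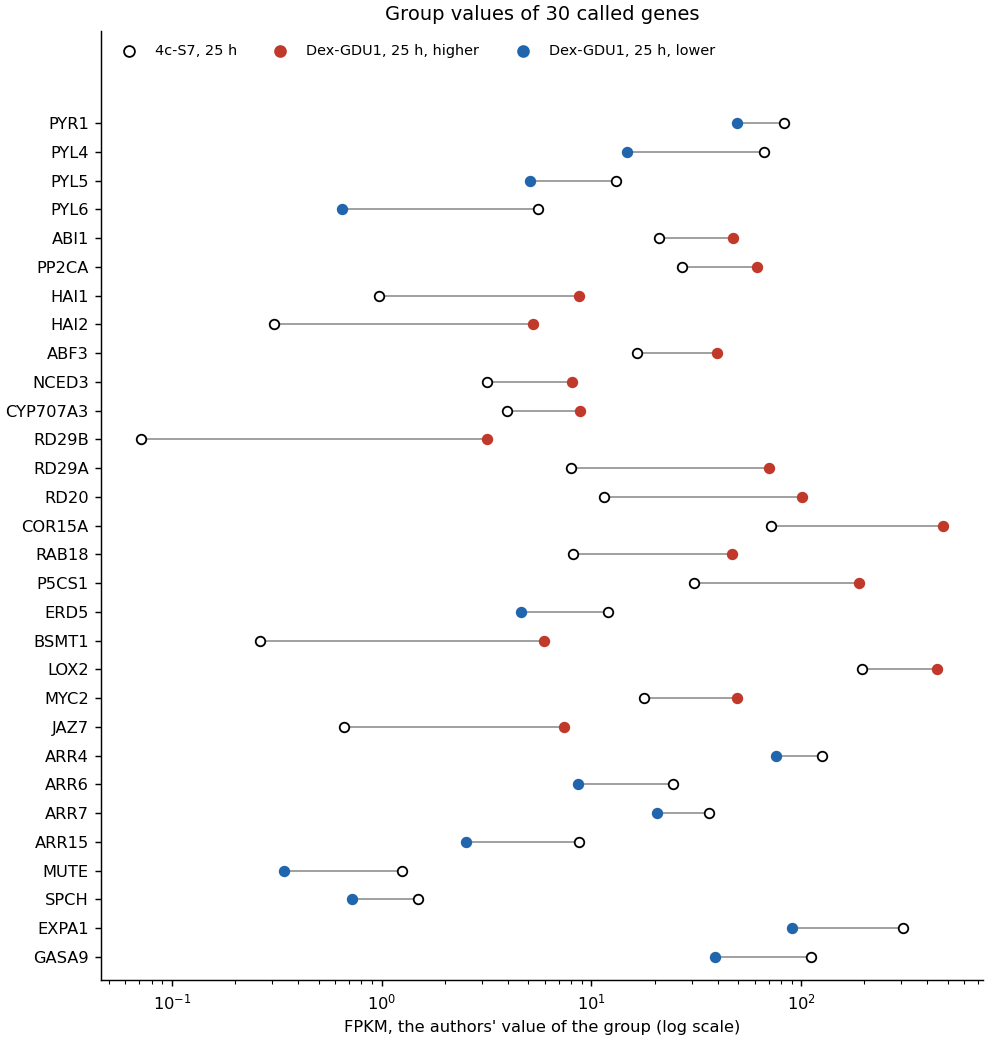
FPKM of 30 called genes in 4c-S7 (open circles) and Dex-GDU1 (filled circles) at 25 h, on a log scale, 1 authors' value per group. Receptors, response regulators, MUTE, SPCH, ERD5, EXPA1 and GASA9 lie to the left in Dex-GDU1, and PP2C, drought and jasmonate genes to the right.

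To see whether the ABRE letters go with these differences, the 250 bases before the annotated start of each gene were read from the TAIR10.1 genome. The word ACGTG, the core of the ABRE, was searched on both strands, so that its reverse CACGT counts as well. A G-box, CACGTG, holds both words and thus contains the ABRE core. The promoters of 5 genes are shown, with each ABRE core in capitals. They belong to strongly changed members of the pathway that do and do not hold the word in this window.
RD29B (chr5:21236771-21237020, plus strand): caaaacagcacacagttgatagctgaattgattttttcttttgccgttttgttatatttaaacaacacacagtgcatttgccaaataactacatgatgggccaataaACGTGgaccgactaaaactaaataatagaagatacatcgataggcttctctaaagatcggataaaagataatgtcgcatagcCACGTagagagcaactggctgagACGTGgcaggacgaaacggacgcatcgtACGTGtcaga
LEA7 (chr1:19619474-19619723, plus strand): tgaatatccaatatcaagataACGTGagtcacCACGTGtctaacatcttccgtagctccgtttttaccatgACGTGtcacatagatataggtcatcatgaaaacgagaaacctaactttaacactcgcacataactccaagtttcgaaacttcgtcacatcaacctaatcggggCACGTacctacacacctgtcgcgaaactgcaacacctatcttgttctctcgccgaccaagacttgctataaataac
HAI2 (chr1:2282829-2283078, minus strand): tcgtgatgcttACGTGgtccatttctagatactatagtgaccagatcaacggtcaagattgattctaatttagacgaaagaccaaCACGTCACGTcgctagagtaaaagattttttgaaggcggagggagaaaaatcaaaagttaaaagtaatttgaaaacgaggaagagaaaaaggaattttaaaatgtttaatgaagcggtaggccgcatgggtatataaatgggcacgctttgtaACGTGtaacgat
HAI1 (chr5:23896940-23897189, minus strand): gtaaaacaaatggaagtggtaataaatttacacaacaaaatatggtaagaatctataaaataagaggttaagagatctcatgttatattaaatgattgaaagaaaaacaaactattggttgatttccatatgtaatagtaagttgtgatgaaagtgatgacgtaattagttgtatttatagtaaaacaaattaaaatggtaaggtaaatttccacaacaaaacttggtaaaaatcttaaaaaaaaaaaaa
PYL6 (chr2:16846195-16846444, minus strand): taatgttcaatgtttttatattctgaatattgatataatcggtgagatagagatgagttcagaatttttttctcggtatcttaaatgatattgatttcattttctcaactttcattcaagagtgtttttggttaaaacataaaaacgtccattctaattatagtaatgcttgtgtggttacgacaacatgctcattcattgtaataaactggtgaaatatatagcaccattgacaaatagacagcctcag
RD29B and LEA7, which encode protective proteins, hold 4 and 5 matches, and HAI2 holds 4. HAI1 has none in this window although its FPKM was 9.01-fold higher, and PYL6, the receptor that fell most, has none either. For both genes the window does not adjoin the measured entry. The HAI1 entry ends at 23896619 and its window begins at 23896940. The PYL6 entry ends at 16845934 and its window begins at 16846195. The bases between were not searched, so a match there would be missed. A match is a word in the sequence and shows no binding.

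Across 15620 protein-coding genes with 1 promoter each, 23.7% held the ABRE core. The share was 41.9% among the 725 promoters of genes at least 2-fold higher at 25 h and 63.0% among the 54 of genes at least 8-fold higher. It was 20.5% among the 122 promoters of genes at least 2-fold lower. The G-box was held by 7.54% of all, by 14.1% of those at least 2-fold higher, by 27.8% of those at least 8-fold higher and by 4.92% of those at least 2-fold lower. For the W-box core TTGAC, the target of WRKY factors, the shares were 44.7% of all, 54.2%, 48.1% and 46.7% in the same order. The DRE core CCGAC was in 13.3% of all, 15.9%, 31.5% and 9.02%, and the as-1 core TGACG in 19.4% of all, 22.6%, 18.5% and 19.7%. The W-box core can overlap the as-1 core by the letters TGAC, and the as-1 core can overlap the ABRE core by ACG. These shares are descriptions without a test, and base composition was not matched.

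**Figure D3:**
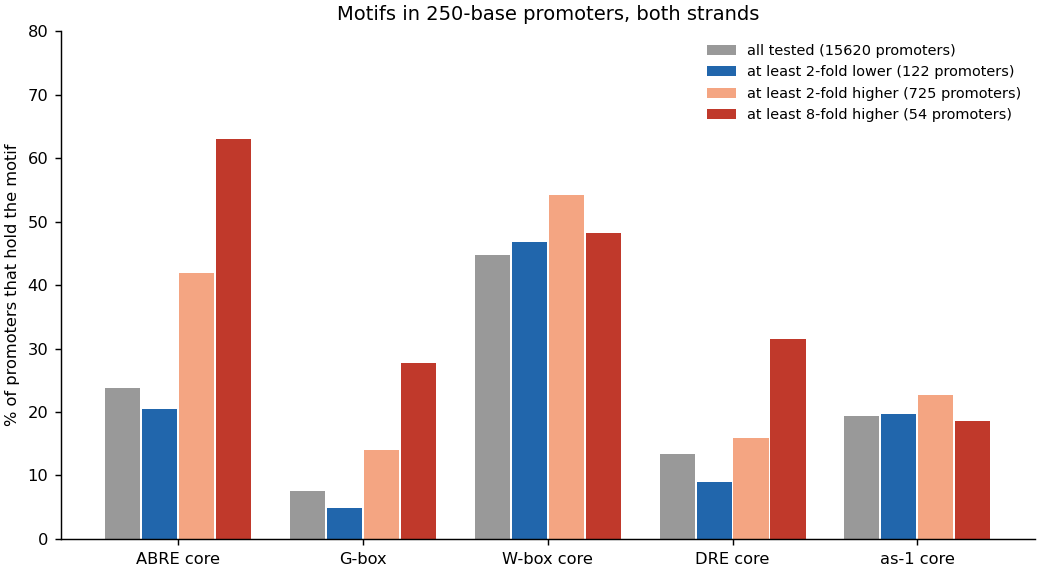
Percent of 250-base promoters that hold each motif on either strand (vertical), for all tested genes and for genes at least 2-fold lower, 2-fold higher and 8-fold higher at 25 h. The ABRE core climbs from 23.7% of all promoters to 41.9% and 63.0% of those of higher genes, while the W-box core stays between 44.7% and 54.2%.

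Drought and cold protection genes were nearly all higher. Of 26 tested late embryogenesis abundant (LEA), dehydrin and other drought genes, 25 were higher, 22 of them at least 2-fold, and only ERD6, a sugar transporter gene, was lower (41.0 against 56.8 FPKM). Their median log2 fold change was 1.87. COR15A, a chloroplast cryoprotectant, stood at 472 FPKM in Dex-GDU1 and 71.9 FPKM in 4c-S7, ERD14 at 399 and 197 FPKM, and the dehydrin RAB18 at 46.6 and 8.18 FPKM. RD29A stood at 70.1 against 8.01 FPKM and the caleosin RD20 at 101 against 11.5 FPKM. RD29B (AT5G52300) had the steepest ratio of the list, 3.18 against 0.0716 FPKM, from a control level close to 0. Homeobox regulators of the drought response rose with them, HB7 to 33.1 from 4.89 FPKM and HB12 to 32.4 from 10.6 FPKM.

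Compatible solutes followed the same direction in part. P5CS1, which makes proline, stood at 189 against 30.7 FPKM, while ERD5, the proline dehydrogenase that degrades it, was lower at 4.62 against 12.05 FPKM. A second proline dehydrogenase gene, PRODH2, was higher at 5.97 against 2.42 FPKM. Among 19 tested raffinose and trehalose genes 13 were higher and 3 lower. GolS2 and GolS1, which start raffinose synthesis, stood at 9.26 against 0.519 FPKM and at 11.7 against 4.05 FPKM, and DIN10, which the list counts with raffinose synthases, was lower at 36.1 against 72.5 FPKM.

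ABA synthesis and ABA removal genes were both higher. Of 13 tested, 11 were higher and 0 lower, with a median log2 fold change of 0.78. NCED3, the rate-limiting enzyme of stress-induced ABA synthesis, stood at 8.11 against 3.17 FPKM, and BG1, which releases ABA from its glucose ester, at 140.0 against 38.3 FPKM. All 4 ABA 8'-hydroxylases, which inactivate the hormone, were higher, with log2 fold changes of 1.203 for CYP707A1, 0.78 for CYP707A2, 1.16 for CYP707A3 and 1.18 for CYP707A4.

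**Figure D4:**
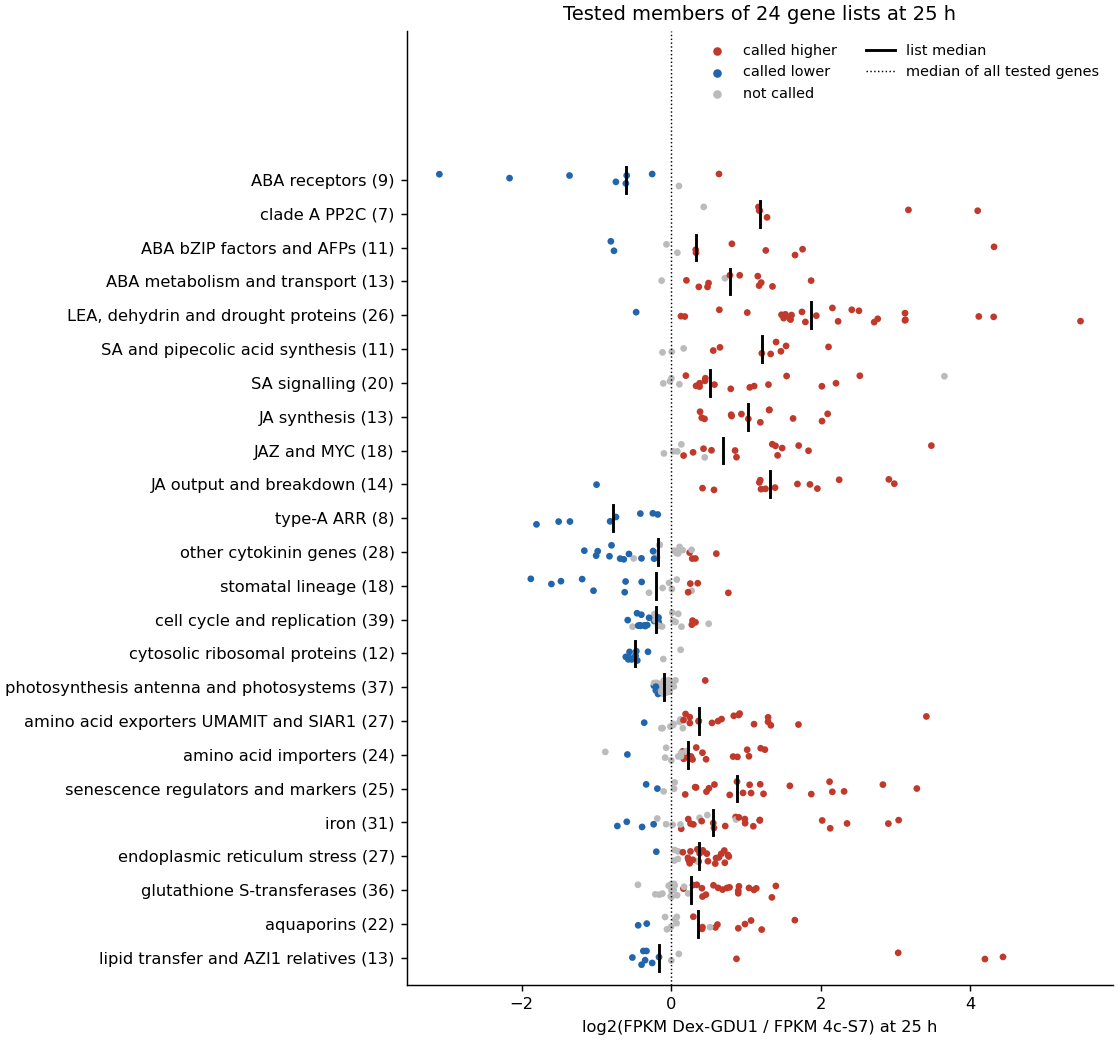
Log2 fold change at 25 h of the tested members of 24 gene lists (points, with the number tested beside the name), coloured by call, with the list median as a bar. Type-A ARR members all lie left of 0, jasmonate synthesis members all lie right of 0, and photosynthesis genes cluster near 0.

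Salicylic acid (SA) genes were more often higher than lower in synthesis, modification and signalling. Of 11 tested genes of SA and pipecolic acid synthesis, 8 were higher and 0 lower, with a median of 1.21. ALD1, which makes the pipecolic acid precursor, stood at 5.63 against 1.31 FPKM, the regulators CBP60G and SARD1 at 15.2 against 5.24 FPKM and 15.7 against 6.25 FPKM, and ICS1, the main SA synthesis enzyme, at only 17.5 against 11.9 FPKM. Enzymes that modify SA were mostly higher. BSMT1 (AT3G11480), which methylates SA to a volatile ester, went from 0.262 to 5.96 FPKM, and the methyl salicylate esterase gene MES9 from 2.56 to 6.84 FPKM. The SA hydroxylases DLO1 and DMR6 stood at 10.7 against 2.699 FPKM and 58.3 against 28.6 FPKM, and the glucosyltransferases UGT76B1 and UGT74F2 at 8.71 against 3.62 FPKM and 62.9 against 45.5 FPKM. WES1, which conjugates amino acids to such acids, stood at 2.19 against 0.853 FPKM. The esterase genes MES7 (1.44 against 3.50 FPKM) and the joined entry of MES2 (184 against 245 FPKM) were lower, which makes 7 higher and 2 lower of 9 tested.

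SA signalling genes followed, with 15 higher and 0 lower of 20. The glutaredoxin GRX480 stood at 14.4 against 2.51 FPKM, the NPR1-binding NIMIN1 at 10.12 against 2.196 FPKM, and WRKY70 at 200.2 against 68.7 FPKM. Among 12 tested pathogenesis-related (PR) and defensin genes, 7 were higher and 2 lower. PR1 stood at 184 against 64.5 FPKM on a stretch of reads shared by 7 entries, PR2 at 93.9 against 47.7 FPKM, and the thionin THI2.2 was lower at 33.5 against 55.7 FPKM. Pattern recognition genes were higher in 15 of 21 cases and lower in 1. MPK11 stood at 6.79 against 2.00 FPKM, the chitin receptor LYK5 at 10.5 against 4.18 FPKM, and the oxidase RBOHD at 27.1 against 14.4 FPKM. Camalexin and indole glucosinolate genes were higher in 15 of 19 cases and lower in 1, with PAD3, the last camalexin enzyme, at 16.8 against 6.26 FPKM. Aliphatic glucosinolate genes were higher in 16 of 24 cases, but none was at least 2-fold higher.

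Jasmonate (JA) genes were higher at each step. All 13 tested synthesis genes were higher, with a median log2 fold change of 1.03. The plastid lipoxygenase LOX2 stood at 445 against 195 FPKM, LOX4 at 10.2 against 2.401 FPKM, the cyclase AOC1 at 76.3 against 24.7 FPKM and OPR3 at 56.8 against 22.9 FPKM. Of the JAZ repressors and MYC activators, 13 of 18 were higher and 0 lower, among them MYC2 (49.7 against 17.8 FPKM), JAZ9 (160.0 against 62.7 FPKM) and JAZ7 (7.39 against 0.663 FPKM). JA breakdown enzymes were higher as well, with CYP94B3 at 3.58 against 0.476 FPKM, JOX2 at 25.6 against 7.09 FPKM and ST2A at 1.98 against 0.251 FPKM. Output genes included CORI3 at 323 against 68.1 FPKM and VSP2 at 46.3 against 17.7 FPKM. In all, 13 of 14 tested output and breakdown genes were higher and 1 lower.

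Ethylene genes were mixed. ACS6 and ACS2, which make the ethylene precursor, stood at 36.5 against 16.0 FPKM and 1.08 against 0.207 FPKM, while ACS4, of the same enzyme family, was lower at 1.11 against 1.86 FPKM. Of 18 tested ethylene genes 8 were called higher and 4 lower. The ethylene response and DREB factor family held 22 higher and 9 lower of 46 tested, and 16 were at least 2-fold higher. ORA47, which activates JA synthesis genes, stood at 37.5 against 8.56 FPKM, ERF1A at 27.7 against 6.55 FPKM and ERF11 at 6.15 against 1.41 FPKM, whereas RAP2.9 was lower at 1.12 against 3.96 FPKM.

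Cytokinin response regulators were the most uniform group among the lower genes. Type-A ARR genes are induced by cytokinin and feed back on its signal, and all 8 tested members were lower, with a median log2 fold change of -0.78. ARR15 (AT1G74890) stood at 2.52 FPKM in Dex-GDU1 and 8.77 FPKM in 4c-S7, ARR6 at 8.63 and 24.5 FPKM, ARR16 at 5.70 and 14.6 FPKM, ARR7 at 20.6 and 36.4 FPKM, and ARR4 at 75.6 and 126 FPKM. The smaller differences were those of ARR5, ARR8 and ARR9, with log2 fold changes of -0.41, -0.25 and -0.18. ARR3 and ARR17 were not tested, both being below 0.1 FPKM. Of 28 other tested cytokinin genes 11 were lower and 4 higher. The receptor gene AHK2, in a joined entry, stood at 12.8 against 25.3 FPKM, the synthesis gene IPT3 at 14.2 against 22.0 FPKM and the response factor CRF2 at 3.51 against 7.84 FPKM.

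Growth genes moved both ways. Expansins and xyloglucan enzymes, which loosen cell walls, had 13 higher and 15 lower of 41. EXPA1, the most expressed called member, stood at 90.5 against 304 FPKM and XTH9 at 28.6 against 61.7 FPKM, while EXPA16 was higher at 15.8 against 2.85 FPKM. Gibberellin and GASA genes were evenly split, 7 higher and 7 lower of 20. GASA9 and GASA6 were lower, at 39.0 against 111 FPKM and 169 against 293 FPKM, and the gibberellin-inactivating GA2OX6 was higher at 2.19 against 0.607 FPKM. Auxin genes were called in 8 of 34 cases, 5 higher and 3 lower, and brassinosteroid genes in 5 of 16.

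Early stomatal lineage genes were lower at low levels. MUTE and SPCH, transcription factors of the lineage, stood at 0.342 against 1.25 FPKM and 0.722 against 1.48 FPKM. The polarity genes BASL and POLAR stood at 0.302 against 0.916 FPKM and 0.370 against 0.845 FPKM, and the peptide EPF2 at 0.619 against 1.72 FPKM. FAMA, the late factor of guard cell fate, was not called, at 10.9 against 11.1 FPKM, and in all 8 of 18 tested members were lower and 4 higher. In leaf RNA, fewer cells of a type and less RNA per cell cannot be told apart. Of 10 guard cell markers 4 were lower and 1 higher, none was at 0, and their summed level was 186 FPKM in Dex-GDU1 against 241 FPKM in 4c-S7. GASA9 alone, at 39.0 against 111 FPKM, fell by more than this sum did, so the lower sum rests on it. CYP86A2, the 1 marker called higher, stood at 85.3 against 62.3 FPKM. The part of the guard cell markers in these results was not tested. Division and replication genes were lower in 16 of 39 cases and higher in 3, none by 2-fold, with a median of -0.20. Cytosolic ribosomal protein genes were picked by the wording of their reference description, which gave 19 genes. Genes described otherwise are left out, so the list does not stand for the whole class. Of its 12 tested entries 10 were lower and 0 higher, with a median of -0.48 and a sum of 1578 against 2210 FPKM.

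Amino acid transport and nitrogen genes were higher more often than lower. Of 27 tested exporters of the UMAMIT family, 18 were higher and 1 lower. UMAMIT20 stood at 35.8 against 14.2 FPKM, UMAMIT17 at 20.4 against 9.49 FPKM, and UMAMIT33 at 3.37 against 0.317 FPKM. Importers were higher in 15 of 24 cases and lower in 1. AAP1 stood at 76.7 against 37.3 FPKM, the GABA transporter GAT1 at 6.98 against 3.05 FPKM, and LHT1, a broad importer of leaf cells, at 13.6 against 9.85 FPKM. Nitrate reductase genes NIA2 and NIA1 stood at 345 against 221 FPKM and 65.7 against 42.5 FPKM, and the nitrate transporter gene NRT1.7 at 54.4 against 27.7 FPKM. Nitrogen assimilation as a list had 12 higher and 5 lower of 29, the lower ones including ASN3 (6.53 against 10.3 FPKM) and the nitrate transporter NRT1.1 (26.5 against 36.4 FPKM). NATA1, which acetylates ornithine, went from 1.09 to 15.2 FPKM. Branched-chain, lysine and aromatic breakdown genes were higher in 7 of 17 cases and lower in 1, led by MGL (6.56 against 2.14 FPKM) and ALDH7B4 (68.8 against 23.5 FPKM).

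Sugar and senescence genes showed the same lean. SWEET15, a sugar exporter gene of old leaves, stood at 18.9 against 1.94 FPKM, SWEET4 at 8.37 against 2.17 FPKM and the hexose importer STP13 at 44.2 against 20.4 FPKM. Sugar transport genes were higher in 15 of 25 cases and lower in 5. Senescence regulators and markers were higher in 20 of 25 cases and lower in 2, with a median of 0.88. NAP, a NAC activator of leaf ageing, stood at 11.8 against 2.38 FPKM, WRKY53 at 20.9 against 2.94 FPKM and SAG21 at 105 against 34.9 FPKM. Autophagy genes changed little, 11 higher and 2 lower of 36 with none past 2-fold.

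The photosynthesis genes stayed near the control level. Of 37 tested antenna and photosystem genes 1 was higher and 5 lower, with a median log2 fold change of -0.10, and PSAN stood at 3024 against 3486 FPKM. Calvin cycle genes had 2 higher and 4 lower of 15. The 1 higher antenna entry joins LHCB7 and CP12-3, so it is also 1 of the 2 higher Calvin cycle entries. Of 25 tested chlorophyll genes 7 were higher, 10 lower and 8 not called. Over all tested genes 24.5% were higher and 21.6% lower, so the count of higher chlorophyll genes is near the general share. The higher ones included the breakdown genes PAO (in a joined entry), PPH and NYE2 (52.4 against 35.4 FPKM, 32.2 against 24.2 FPKM and 0.914 against 0.561 FPKM) and the lower ones the synthesis genes CHLM, CHLD and CHLI2 (290.3 against 381 FPKM, 129 against 163 FPKM and 68.1 against 97.0 FPKM). None of the 4 tested mesophyll markers was called, and their list summed to 15182 against 16021 FPKM, without RBCS1A and RCA. No mesophyll marker was at 0 apart from those. Xylem markers were higher in 5 of 6 cases (97.1 against 81.9 FPKM in sum), phloem markers in 2 of 7 with 2 lower (587 against 555 FPKM). Epidermis and trichome markers were higher in 2 of 6 cases and lower in 1 (242 against 194 FPKM), with GL1 at 0 in both groups. Root markers were not called in 3 of 3 cases (18.5 against 17.9 FPKM in sum), with RHD6 at 0. Among flower markers AG alone was tested, at 0.771 against 0.509 FPKM, and LFY was at 0.

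The leaf surface and water channels changed in named members. Lipid transfer protein (LTP) genes LTP3 and LTP4 stood at 329.8 against 18.0 FPKM and 125 against 5.77 FPKM, LTP2 at 49.2 against 6.00 FPKM and LTP1 at 1409 against 769 FPKM, whereas AZI1, EARLI1, LTP5 and LTPG2 were lower, with log2 fold changes of -0.52, -0.37, -0.40 and -0.35. The list held 4 higher and 7 lower of 13. WSD1, a wax ester synthase, stood at 15.8 against 2.13 FPKM and CER1, an alkane synthesis gene in a joined entry, at 98.4 against 41.3 FPKM. Aquaporins were higher in 11 of 22 cases and lower in 3. TIP2;2 stood at 308 against 133 FPKM, PIP2;3 at 60.9 against 19.4 FPKM and PIP1A at 375 against 201 FPKM, and PIP2;7 was lower at 226 against 343 FPKM. Phenylpropanoid and lignin genes were higher in 16 of 25 cases and lower in 3, with CCR2 at 5.202 against 0.931 FPKM.

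Metal, stress and detoxification genes were more often higher than lower, beside 24.5% higher and 21.6% lower of all tested genes. The 4 iron-deficiency bHLH factors of subgroup Ib stood at 47.2 against 5.73 FPKM (BHLH38), 49.3 against 6.59 FPKM (BHLH100), 20.5 against 4.01 FPKM (BHLH39) and 15.1 against 3.45 FPKM (BHLH101). BHLH38 shares its stretch of reads with 1 other entry. The vacuolar iron exporter NRAMP4 stood at 52.2 against 23.0 FPKM, while ferritin FER1 was not called (30.2 against 23.3 FPKM). Of 31 tested iron genes 20 were called higher and 4 lower. Glutathione S-transferases were higher in 19 of 36 cases and lower in 0, with GSTF2 at 226 against 85.8 FPKM and GSTU4 at 14.5 against 5.72 FPKM. Endoplasmic reticulum chaperones and folding genes were higher in 21 of 27 cases and lower in 1, none by 2-fold, with BZIP60 at 50.8 against 30.02 FPKM. Heat shock genes were higher in 10 of 25 cases and lower in 3, with HSFC1, a heat shock factor, at 7.63 against 1.96 FPKM, and mitochondrial stress genes in 10 of 18 with 2 lower, with the alternative oxidase AOX1D at 3.91 against 1.42 FPKM.

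Regulator families followed. WRKY factors were higher in 27 of 47 cases and lower in 3, with WRKY40 at 23.4 against 6.85 FPKM and WRKY33 at 52.2 against 16.4 FPKM, and with WRKY29 lower at 0.732 against 2.91 FPKM. NAC factors were higher in 29 of 57 cases and lower in 4, with NAC019 at 14.03 against 2.35 FPKM and RD26 at 43.0 against 8.06 FPKM. Cysteine-rich receptor kinases were higher in 16 of 25 cases, calcium-dependent kinases and their partners in 27 of 48 and calmodulins in 8 of 16, with 2, 4 and 2 lower. Clock genes were higher in 20 of 33 cases and lower in 6, led by RVE3 at 5.27 against 1.51 FPKM. PAP1, an activator of anthocyanin synthesis, stood at 11.1 against 2.36 FPKM, and the flavonoid list held 7 higher and 5 lower of 16. Its enzyme genes went both ways, with F3H and UGT78D2 higher (log2 fold changes of 0.85 and 0.57) and LDOX and DFR lower (-0.44 and -0.41).

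The same lines were compared 7 h after spraying, which shows how far the 25 h pattern had formed. At 7 h, 1533 genes (8.76%) were called higher and 1258 (7.19%) lower. Controls of the times are separate libraries of 4c-S7, sampled at different times of day. Among genes tested at both times, 24.4% of those called higher at 25 h (1000 of 4090) were already called higher at 7 h, and 24.6% of those called lower (926 of 3769) were called lower. The log2 fold change itself was more positive at 25 h for 1774 genes (10.4%) and more negative for 1177 (6.88%), of 17115 compared (normal test of the difference of log2 fold changes with Benjamini-Hochberg adjustment, below 0.05). With standard errors taken from the authors' test statistics these counts were 307 and 91, so the counts of members below depend on that choice.

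Drought genes were partly higher at 7 h and mostly more positive at 25 h. At 7 h, 15 of 24 tested drought genes were already called higher and 0 lower, beside 8.76% higher of all genes tested then. Their median log2 fold change at 7 h was 0.27. Of 23 drought genes tested at both times 19 had moved up by 25 h and 1 had moved down, and COR15A went from 100.4 against 83.5 FPKM at 7 h to the values above, a difference of 2.45 (SE 0.67, adjusted p 0.00468). PYL6 was already lower at 7 h, at 6.77 against 11.3 FPKM, and was more negative at 25 h by -2.36 (SE 0.79, adjusted p 0.0222). All 8 type-A ARR genes were more negative at 25 h, while at 7 h 1 of the 8, ARR5, was called, and that higher. Of 11 ABA metabolism genes tested at both times 2 were more positive at 25 h, and 5 of the 11 tested at 7 h were already called higher then. NCED3 stood at 7.36 against 2.204 FPKM at 7 h and CYP707A3 at 11.6 against 1.94 FPKM, and neither difference between the times passed the test (adjusted p 0.708 and 0.146, differences -0.39, SE 0.54, and -1.43, SE 0.70). Both genes are at the smallest p at both times, so these standard errors are upper bounds under a normal reading. A difference that did not pass is not thereby shown to be absent.

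Over all genes tested at both times, 137 turned from a lower call at 7 h to a higher call at 25 h. Among them were 11 of 27 endoplasmic reticulum genes, 4 of 28 iron genes, 3 of 12 PR and defensin genes and 3 of 7 SA modification genes. Of the endoplasmic reticulum genes 20 were more positive at 25 h, and BIP3, a stress-induced chaperone gene, went from 1.21 against 2.45 FPKM to 4.05 against 2.38 FPKM. LTP4 went from 0.877 against 4.54 FPKM to 125 against 5.77 FPKM, the largest such difference among list members (difference 6.81, SE 1.24, adjusted p 1.02e-05). For a gene picked by opposite calls, a low p of the difference follows largely from those calls. In the iron regulators the control moved most. BHLH100 was at 137 FPKM in Dex-GDU1 and 159.8 FPKM in 4c-S7 at the early time, compared with 49.3 and 6.59 FPKM later. Glutathione S-transferases were more positive at 25 h in 15 of 33 cases, and EXPA1 crossed the other way, from 124 against 111 FPKM at 7 h to lower at 25 h.

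**Figure D5:**
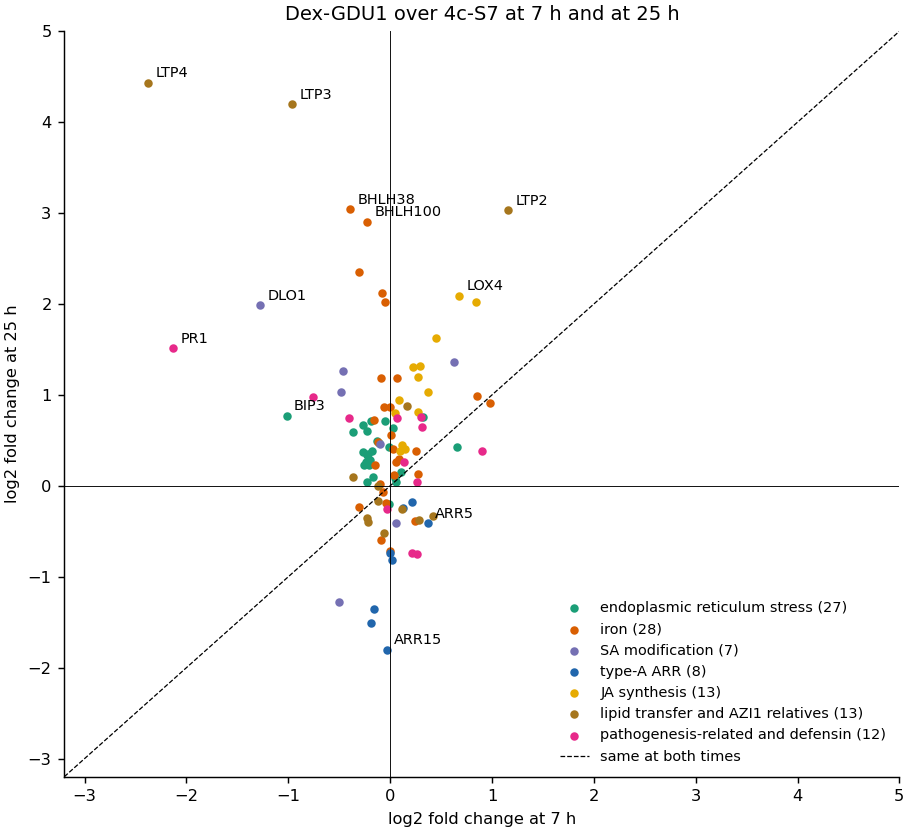
Log2 fold change of Dex-GDU1 over 4c-S7 at 7 h (horizontal) and at 25 h (vertical) for the members of 7 gene lists tested at both times, with the line of equality dashed. LTP4, LTP3, PR1 and DLO1 sit left of 0 at 7 h and above 0 at 25 h, while type-A ARR genes lie near 0 at 7 h and below 0 at 25 h.

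A smaller set differed at both times alike. At least 2-fold and called in the same direction at both times were 75 higher and 13 lower entries. The higher ones include fast regulators of stress responses, among them ORA47 (22.0 against 4.37 FPKM at 7 h), ERF11 (7.50 against 2.07 FPKM), WRKY40 (37.7 against 11.2 FPKM), WRKY33 (71.0 against 29.5 FPKM) and CBP60G (14.4 against 6.97 FPKM). Among the lower ones are floral repressors, FLC (listed as FLF), at 0.475 against 1.29 FPKM at 25 h and 1.07 against 2.66 FPKM at 7 h, and the joined entry of its relatives AGL68 and AGL69 at 1.34 against 7.02 FPKM at 25 h. AT4G08050, an uncharacterized protein gene, stood at 6.51 against 0.0192 FPKM at 25 h and 3.73 against 0.0486 FPKM at 7 h, and its log2 fold change in gdu1-1D was -0.07. FLC, AT4G08050 and the regulators of this paragraph were chosen after their values were seen. Differences between the lines and lasting effects of induction cannot be told apart in them.

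The constitutive over-expressor served as a comparison with another GDU1 source. In gdu1-1D, GDU1 stood at 294 FPKM against 5.19 FPKM in Col wild type, far below its level after induction. Of 17331 genes compared, the log2 fold change was more positive at 25 h in 1143 (6.6%) and more negative in 875 (5.05%). With standard errors from the authors' test statistics the counts were 137 and 343, so their balance turned, and the member counts here rest on the first choice. PP2C, JAZ and type-A ARR genes had 0 members that differed in either direction, with medians in gdu1-1D of 0.94, 0.68 and -0.73, whereas 3 of 9 ABA receptors were more negative at 25 h. PYL5 was among these 3, being not called in gdu1-1D (log2 fold change 0.21; difference -1.57, SE 0.36, adjusted p 0.000646). Endoplasmic reticulum genes were more negative at 25 h than in gdu1-1D in 11 of 27 cases, and PR and defensin genes in 5 of 12. UMAMIT exporters were more positive at 25 h in 9 of 27 cases, with UMAMIT18 at 22.9 against 9.35 FPKM at 25 h and a difference of 1.28 (SE 0.33, adjusted p 0.00314). A member that did not differ is not thereby shown to behave alike, and the sprayed and unsprayed plants differ in treatment and control line as well.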

How the data were processed

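Leaf mRNA was sequenced as 100 bp paired reads, per the labels. Per the submitters' processing notes the authors used TopHat2, Cufflinks and Cuffdiff with TAIR10, whose versions and settings are not given in the sources used here. The deposited tables give 1 FPKM per gene and group, a p-value, a q-value and a test statistic (a score), per the file headers. Depth is unknown and values per library are not used here, so no SD, interval or detection limit is given. The labels number replicates without saying how plant pools were kept apart, so p-values may measure technical spread.

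Calls are the authors' (q below 0.05). Fold changes were recomputed from the deposited FPKM with no pseudocount. Differences between 2 comparisons were tested with a normal test, using standard errors recomputed from the authors' p-values, with Benjamini-Hochberg adjustment over all genes compared (statsmodels 0.14.6, scipy 1.17.1). Since p stops at 5e-05, those standard errors are upper bounds for the strongest genes only if p is read as that of a normal test. Of 13010 p-values above that floor, 3368 lay within 1.5 times of the normal p of the authors' test statistic. Simulated data for 25 h minus 7 h held 17111 genes, with 200 planted differences spread over the sizes 0.5, 1 and 2. Of those of each size, 14.3%, 47.8% and 61.4% were recovered, and 2 unchanged genes were called. The simulated noise was normal and used the same standard errors as the test. It therefore cannot show whether those errors hold in the deposited data.

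Locus tags were found for 31878 of 32650 entries, and 1238 entries join several genes. Entry starts are printed plus 1, which matched the annotated start for 8881 of 21761 entries against 91 as listed. Promoters are the 250 bases before the start in RefSeq's TAIR10.1, which for HAI1 and PYL6 lies away from the measured entry. Members and gene lists were chosen with earlier results of these data known. Genes to name were all GDU genes, receptors, PP2C, SA modification and type-A ARR genes. Added to them were the 15 called genes with the largest change each way (FPKM of at least 5). Up to 5 called members of each other list by size and the 10 largest differences between times each way were added too. The text gives only part of them. Of the largest rises KIN1, DIP2 and ATCSLA10 are left out, and of the largest falls PGP21, UGT73C6, TBL45, ATOPT1, ULT1 and HTH. Of the differences between times BT5, ESE3, TEM2 and TAT3 are left out as well, and so are some list members. Other list members are named where the text describes their role. Alternatives were another q threshold, FPKM minimum, pseudocount, centring, adjustment, joined entries, and standard errors from the test statistics.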

Additional observations from a re-analysis of the deposited data

Results flagged for a closer look

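The log2 fold change of Dex-GDU1 over 4c-S7 differed between 25 h and 7 h in 1774 genes that were more positive at 25 h and 1177 that were more negative. The named genes given here were called in opposite directions at the 2 times and passed the normal test with Benjamini-Hochberg adjustment. That test adds little to the opposite calls, because its standard errors come from the same p-values. Where both calls are at the smallest p, the difference is always at least 4.06 times its standard error. Each value is the log2 fold change at 25 h minus that at 7 h.

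Defense and SA genes turned from lower to higher. The difference was 3.65 for PR1, 1.73 for PR2, 1.15 for PR5, 4.64 for the joined entry of AT2G14595 and PRB1, 1.77 for NIMIN2 and 1.48 for NHL10. PR1 and the joined entry of PRB1 lie on the same stretch of reads, and PR5 is in a joined entry as well. SA-modifying enzymes gave 3.26 for DLO1, 1.51 for DMR6 and 1.73 for UGT76B1, and the jasmonate-inactivating CYP94B3 gave 4.08. Surface, wall and transport genes gave 6.81 for LTP4, 5.16 for LTP3, 1.35 for the aquaporin PIP2;5, 1.47 for the sugar exporter SWEET13 and 1.89 for the invertase CWINV6. ARD, a gene of methionine recycling, gave 5.23. Iron regulators gave 3.43 for BHLH38, 3.13 for BHLH100 and 2.66 for BHLH39. Stress and calcium genes gave 1.79 for BIP3, 0.89 for CRT3, 1.69 for HSFA2 and 0.49 for CAM1, and the Calvin cycle regulator CP12-2 gave 0.35.

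Genes that turned from higher to lower were EXPA1 at -1.91, ACHT5 at -1.49, ACS4 at -1.07, ARR5 at -0.78 and PSAN at -0.38. The times differ in hour of day as well as in time since spraying, and these cannot be told apart.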

How the results depend on the processing

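No paired analysis was possible because the deposited tables hold 1 value per gene and group, and for the same reason no replicate could be left out. The counts of 4329 higher and 3814 lower genes became 804 and 153 with a log2 fold change of at least 1, the same 804 and 153 after centring, and 461 and 55 on log2(FPKM + 1), where the size minimum sets the drop. They stayed within 1.5 times at q below 0.01 (3607 and 2963), with FPKM of at least 1 (4259 and 3773), without joined entries (4045 and 3578) and, chosen after seeing the data, without entries on shared stretches (3326 and 2801). The genes more positive and more negative at 25 h than at 7 h, 1774 and 1177, became 907 and 535 at adjusted p below 0.01, 413 and 94 with a difference of at least 1, and 307 and 91 with standard errors from the test statistics. With those errors the differences from gdu1-1D became 137 and 343, from 1143 and 875. The cause was not tested. Of 132 list counts, 17 moved by over 1.5 times at q below 0.01, 5 without joined entries and 18 without shared stretches. Of 346 gene names 18 lost their call at q below 0.01, among them PYL2, ARR9, PSAN, AG and NYE2, and none changed sign. These names include synonyms of the same gene and genes of 1 joined entry, so they are not 346 separate genes. Depth is unknown, and what it limits was not tested.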

Other observations

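Some of the steepest differences at 25 h belong to genes outside the lists, chosen after their values were seen. AT2G37870, annotated in the lipid-transfer superfamily, stood at 59.4 FPKM in Dex-GDU1 and 2.02 FPKM in 4c-S7. AT1G62420, a DUF506 gene, stood at 4.99 and 0.0801 FPKM. AT1G03935, a small nucleolar RNA on a stretch that 2 entries share, was at 74.0 FPKM in 4c-S7 and 0.33 FPKM in Dex-GDU1 by 25 h, the reverse of 0.94 and 245.8 FPKM at 7 h. AT3G01345, an uncharacterized gene, stood at 0.0694 and 4.97 FPKM at 25 h and at 0.136 and 8.29 FPKM at 7 h.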
